A study of Bos taurus with 16 samples.

Results

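The genes described here are 8 transcription factors that pattern the limbs and the trunk of the embryo, namely TBX4, TBX5, TBX15, PITX1, ZIC1, ZIC5, FOXD1 and EN1, measured by RNA sequencing in 2 muscles of newborn Hanwoo calves, a Korean breed of Bos taurus. They were taken by name through their NCBI gene IDs (508750, 532970, 521974, 508754, 516827, 787451, 112442984 and 529707, in the order above), and all 8 were found among the 34109 genes of the count and TPM tables. They were listed with differences between round and sirloin muscle in these libraries already known, so that contrast is given for them as a description without a test. The diet of the mother was not part of that choice and was tested.

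Round and sirloin muscle were each sampled from 8 calves, which gave 16 libraries. The control group held 4 calves of cows fed 100% of their requirement and the treated group 4 calves of cows fed 150%, in mid to late pregnancy, and per the study's methods all calves were male and were killed at birth before taking colostrum. Calves are numbered 1 to 4 within each diet here, and the 2 libraries of a calf carry the same number. The labels give the cut but neither the muscle nor the position within it. Round is a cut of the hind leg and sirloin one of the loin and hip, and the study's discussion names the gluteus medius, a hip muscle, among sirloin muscles by way of example, so that the cut and the exact site of sampling cannot be told apart.

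Limb position is set early in the embryo by a small group of factors. TBX5 acts in the forelimb bud and TBX4 in the hindlimb bud, where PITX1 lies upstream of TBX4, and muscle and connective tissue keep part of this positional pattern after birth. The ZIC zinc finger factors mark the dorsal neural tube and the dorsal part of the somites, from which the muscles of the back arise. TBX15 acts in limb and trunk mesenchyme and in glycolytic muscle fibres, EN1 in the ventral ectoderm of the limb, the somites and the brain, and FOXD1 in kidney stroma, the retina and other mesenchyme.

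Library totals ran from 44473011 to 72446933 counts for round and from 44863173 to 72165291 counts for sirloin muscle. All were rich in muscle fibre transcripts, since the summed TPM (transcript abundance per length, scaled to an equal total in every library) of 9 fibre markers was 58245 to 95318 in round and 62721 to 105008 in sirloin muscle. There were 3 libraries that stood apart in markers of other cells. In sirloin treated 4 the 5 adipocyte markers summed to 3777 TPM against at most 15.0 TPM in any other library, and in round control 2 the 6 fibroblast and connective tissue markers summed to 1474 TPM and the 4 tendon markers to 109 TPM, against at most 615 and 39.5 TPM elsewhere. In round treated 2 the 3 matched satellite cell markers summed to 14.8 TPM against at most 5.45 TPM elsewhere, of which VCAM1 made up 13.4 TPM. Of 46 tested genes of the 11 marker lists, 0 passed the test between the muscles by edgeR at an adjusted p of 0.05 (0.533% of all genes did). By edgeR 7 had an unadjusted p under 0.05 (11.2% of all genes). DESeq2 called 4 of the 46 (COL1A1, COL3A1, LUM and DES) and 822 of all 22877 genes. The fibroblast and connective tissue sum was higher in round muscle in 6 of 8 calves, with medians of 291 and 228 TPM, and its part in the differences between the muscles was not tested. Floors given below cover counting error only. The SE and 95% intervals were derived from edgeR's log2 fold change and F statistic, so they are approximate, and they include the spread between calves. Fewer cells of a type cannot be told apart from less RNA per cell in these bulk libraries.

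Between round and sirloin muscle, TBX4 was found only in round muscle, ZIC5 only in sirloin muscle, ZIC1 and FOXD1 were higher in sirloin muscle in 8 of 8 calves, and TBX15, PITX1 and EN1 ran in both directions. TBX5 was at trace level in 4 round libraries and at 0 in all others. These 4 members (TBX4, ZIC1, ZIC5 and FOXD1) had TPM ranges that did not overlap between the muscles, as had 0.0787% of the 22877 genes with a count in any library (0.0219% with round and 0.0568% with sirloin muscle higher), and an equal order in all 8 calves, as had 3.17%. As the members were chosen on this contrast, nothing is read from these shares.

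**Figure D1:**
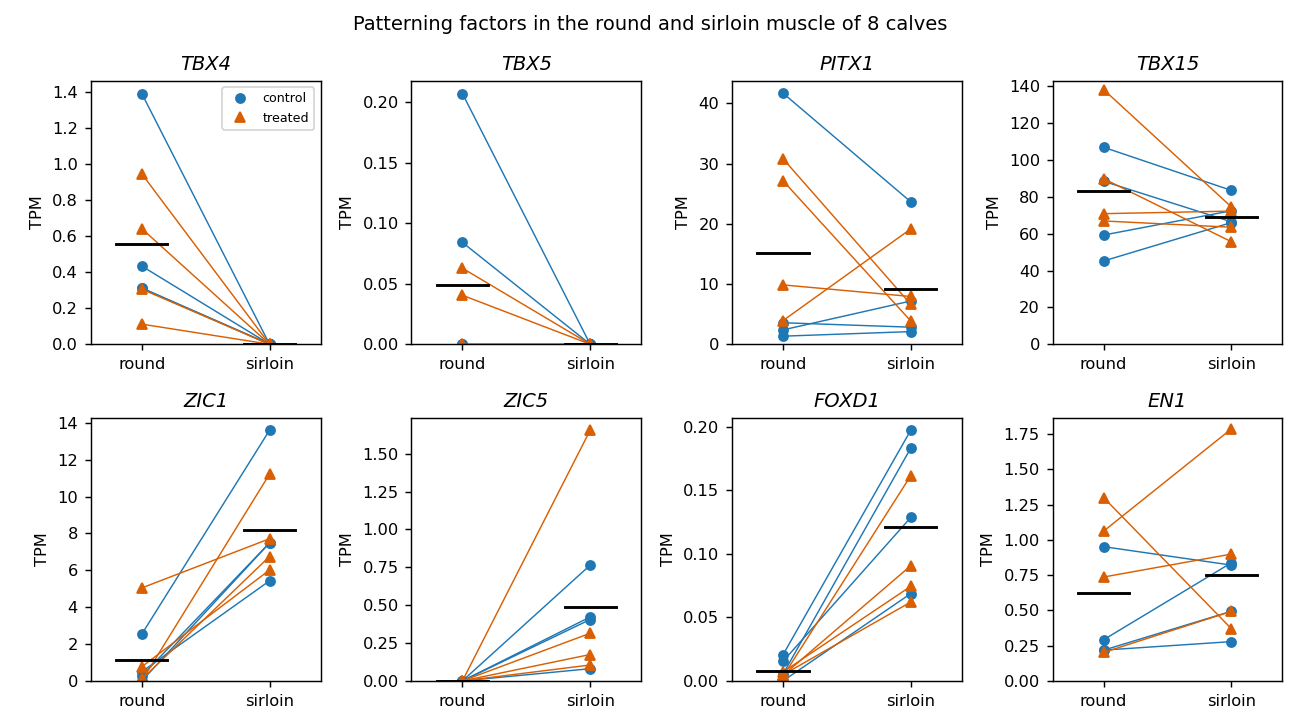
TPM (y axis, linear, a scale of its own for each gene) of the 8 factors in round and sirloin muscle (x axis). Each line joins both muscles of a calf, circles are control and triangles treated calves, and black bars are means of 8 libraries. TBX4 lay at 0.111 to 1.39 TPM in round and at 0 in sirloin muscle, ZIC5 at 0 in round and at 0.0807 to 1.66 TPM in sirloin muscle, and the lines of PITX1 and EN1 cross.

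TBX4, the hindlimb T-box factor, had 0.312, 1.39, 0.309 and 0.433 TPM in the round libraries of control calves 1 to 4 and 0.641, 0.945, 0.111 and 0.305 TPM in those of treated calves 1 to 4. Every round library held TBX4 and no sirloin library held a single count of it. The round libraries had 16 to 185 counts, 482 in all, and a count of 0 over 8 sirloin libraries allows up to 0.00653 CPM, the counts scaled to an equal library total. TBX4 was thus at least 170.1-fold higher in round muscle, with a floor of 3 counts over the group. The highest value came from round control 2, the library rich in connective tissue markers, and without this calf the bound was 107-fold. The part of connective tissue in the TBX4 level was not tested.

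As TBX4 and ZIC5 were chosen on this contrast, nothing is read from the shares that follow. There were 3 genes (0.0131% of 22877) with at least 1 count in every round and none in any sirloin library. They were TBX4, HOXC11 and the uncharacterised LOC101907241, and 1 gene, ZIC5 (0.00437%), had the opposite pattern. HOXC11, a posterior HOX gene, also had the profile over 16 libraries most like that of TBX4, with a root mean square difference of 0.89 in centred log2 CPM. The next were LOC101907241 at 1.45 and MTHFD2 at 1.55, among 13404 genes with a mean of at least 0.5 CPM. HOXC11 and LOC101907241 share the 0 counts of TBX4 in sirloin muscle, so their likeness to it is no separate result.

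TBX5, the forelimb and heart factor, was near the limit of detection. It had 0, 17, 0 and 5 counts in the round libraries of control calves 1 to 4 and 0, 2, 0 and 4 counts in those of treated calves 1 to 4. It had 0 counts in every sirloin library. The 4 round libraries with a count had 0.0405 to 0.207 TPM. The 28 counts in all put it at least 9.88-fold higher in round muscle over the groups of 8, but 17 of these came from round control 2, and without that calf the bound was 3.95-fold. The connective tissue markers were highest in that library too, and their part in the TBX5 counts was not tested. In each of the 4 round libraries with 0 counts, this allows up to 0.0434 to 0.0729 CPM, depending on the library. As for heart tissue, NPPA was at 0 in all 16 libraries and NKX2-5 at most at 0.0458 TPM, while MYH6 ran from 63.5 to 562 TPM.

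PITX1, the homeodomain factor upstream of TBX4 in the hindlimb, did not follow TBX4. It was present in all 16 libraries, at 41.7, 3.56, 1.33 and 2.38 TPM in round control 1 to 4 and at 9.85, 30.8, 27.1 and 3.92 TPM in round treated 1 to 4. In sirloin muscle it had 23.6, 2.83, 2.09 and 7.17 TPM in control 1 to 4 and 7.92, 6.63, 3.86 and 19.1 TPM in treated 1 to 4. The medians of the muscles were 6.88 and 6.90 TPM. Round muscle was higher in 5 of 8 calves and sirloin muscle in 3, with up to 7.03-fold more in round muscle in one calf and up to 4.88-fold more in sirloin muscle in another. The log2 fold change of round against sirloin muscle from edgeR with the calf as a block was 0.34 ± 0.50 (SE), and it was -0.18 in control calves alone and 1.02 in treated calves alone.

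The spread of PITX1 between calves was wide within each muscle. Its highest round library held 31.2-fold the TPM of its lowest, and its standard deviation in log2 CPM of 1.85 in round and 1.25 in sirloin muscle exceeded that of 98.5% and 95.8% of the 13396 and 13358 genes with a mean of at least 0.5 CPM there. The 3 round libraries with most PITX1 (control 1, treated 2 and treated 3) were also those with most TBX1, a T-box factor of the pharyngeal arches and head muscles, at 9.11, 12.9 and 10.4 TPM. Of these, treated 2 had the highest sum of satellite cell markers, most of it from VCAM1 alone. The part of satellite cells in these levels was not tested. The other round libraries had 0.306 to 0.841 TPM of TBX1 and the sirloin libraries 0.0925 to 0.627 TPM. RND2, a small GTPase, had the profile most like that of PITX1, with a root mean square difference of 0.60, followed by GRB14 at 0.89 and PEMT at 0.91.

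TBX15 was by far the most abundant member in both muscles. It had 107, 88.5, 45.2 and 59.3 TPM in round control 1 to 4 and 66.9, 138, 70.9 and 89.9 TPM in round treated 1 to 4. Sirloin muscle had 83.5, 66.4, 66.0 and 72.4 TPM in control 1 to 4 and 63.5, 74.5, 72.3 and 55.6 TPM in treated 1 to 4. The groups overlapped, and round muscle was higher in 5 of 8 calves. With 5611 counts or more in every library, counting error was small beside the spread between calves. The fold between the muscles of a calf was at most 1.85, the smallest among the members, and the edgeR log2 fold change was 0.26 ± 0.15 (SE). Its standard deviation in log2 CPM was 0.44 in round and 0.25 in sirloin muscle, where the median gene had 0.46 and 0.42. Its highest value was in round treated 2, which had the highest sum of satellite cell markers, most of it from VCAM1 alone. The part of satellite cells in it was not tested.

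ZIC1 ranked second in sirloin muscle by median TPM but behind PITX1 by mean TPM (8.21 against 9.16). It had 7.49, 13.6, 7.48 and 5.43 TPM in sirloin control 1 to 4 and 11.2, 6.75, 6.01 and 7.71 TPM in sirloin treated 1 to 4. In round muscle it had 0, 2.54, 0.271 and 0.497 TPM in control 1 to 4 and 0, 0.0939, 0.769 and 5.04 TPM in treated 1 to 4. Sirloin muscle was higher in 8 of 8 calves, with an edgeR log2 fold change of -3.90 ± 0.76 (SE) for round against sirloin muscle, but the ranges came close. The lowest sirloin library had 5.43 TPM and the highest round library, treated 4, had 5.04 TPM.

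The standard deviation of ZIC1 in log2 CPM in round muscle was 2.63, above that of 99.7% of 13396 genes with a mean of at least 0.5 CPM. In sirloin muscle it was 0.45, near the median gene. ZIC1 averaged 1.13 CPM in round muscle and had 0 counts in 2 of 8 libraries there, where the prior count sets the value. Genes of all levels were ranked together, so this is no rank among genes of like level. Over the summed counts of 8 libraries ZIC1 was 6.73-fold higher in sirloin muscle, and without treated calf 4 it was 11.6-fold higher. In round treated 4 the adipocyte markers summed to 4.73 TPM and the fibroblast markers to 397 TPM, where the other round libraries had 1.32 to 15.0 and 239 to 1474 TPM, and the part of these cells in the ZIC1 level was not tested.

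ZIC5 had 0 counts in every round library. In sirloin muscle it had 0.0807, 0.764, 0.422 and 0.405 TPM in control 1 to 4 and 0.174, 0.315, 1.66 and 0.105 TPM in treated 1 to 4. All sirloin libraries thus held it, with 11 to 277 counts and 638 in all. A count of 0 over 8 round libraries allows up to 0.00691 CPM, so that ZIC5 was at least 201-fold higher in sirloin muscle, and at least 112-fold without treated calf 3, which had the highest value. Within sirloin muscle the highest library held 20.5-fold the TPM of the lowest, and the standard deviation in log2 CPM of 1.34 was above that of 96.6% of genes.

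FOXD1, a forkhead factor, was low everywhere. In sirloin muscle it had 0.0687, 0.129, 0.183 and 0.197 TPM in control 1 to 4 and 0.0621, 0.0745, 0.0907 and 0.162 TPM in treated 1 to 4. In round muscle it had 0, 0.0154, 0.00541 and 0.0206 TPM in control 1 to 4 and 0.00481, 0.00702, 0.00441 and 0.00357 TPM in treated 1 to 4. Each sirloin library thus stood above every round library. The counts were 0 to 8 in the round and 19 to 76 in the sirloin libraries, 25 against 363 in all, and over these sums FOXD1 was 13.7-fold higher in sirloin muscle. This ratio was 12.3 to 16.4 when any of the 8 calves was left out. A TPM of FOXD1 stood for more counts than that of the other members, since 1 TPM of it corresponded to 6.17 to 6.91 CPM against 0.913 to 3.52 CPM for the others.

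EN1, a homeodomain factor, did not separate the muscles. It had 0.218, 0.952, 0.292 and 0.218 TPM in round control 1 to 4 and 0.737, 1.30, 0.202 and 1.06 TPM in round treated 1 to 4. Sirloin muscle had 0.494, 0.821, 0.838 and 0.279 TPM in control 1 to 4 and 0.900, 0.371, 0.493 and 1.79 TPM in treated 1 to 4. Sirloin muscle was higher in 6 of 8 calves, and the edgeR log2 fold change was -0.36 ± 0.31 (SE). The highest value was in sirloin treated 4, the library rich in adipocyte markers, and the part of adipocytes in it was not tested. As for skin, where EN1 is also made, KRT5, KRT1 and DSG1 were at 0 in all 16 libraries and KRT14 at most at 0.112 TPM, while the fifth listed gene, TP63, ran from 3.45 to 34.0 TPM with medians of 11.5 in round and 13.3 in sirloin muscle.

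**Figure D2:**
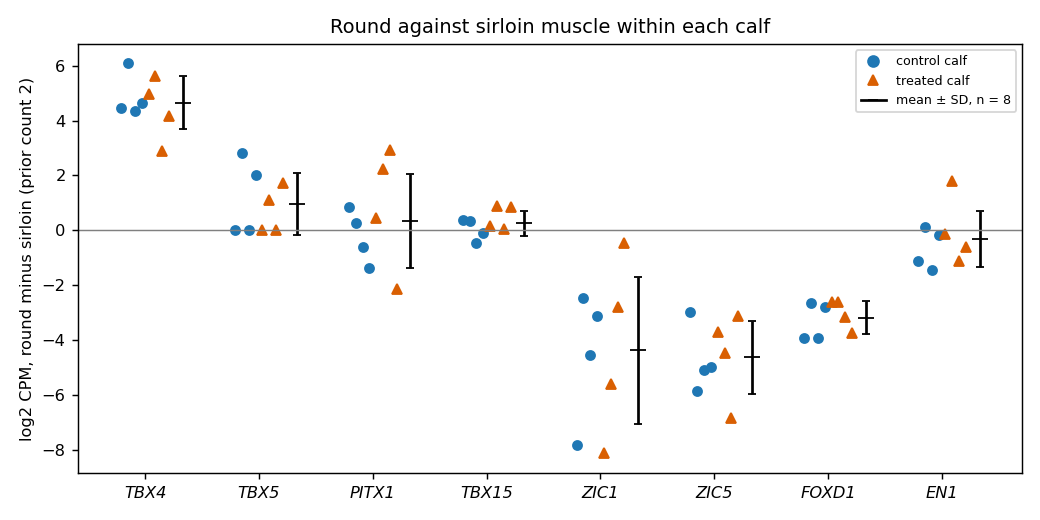
Difference of round minus sirloin muscle in log2 CPM (y axis, prior count of 2) for each factor (x axis) and each of 8 calves, with the mean and SD beside the points. The points of TBX4 lie between 2.90 and 6.09 and those of ZIC5 between -6.86 and -2.97, while those of PITX1 run from -2.13 to 2.92. The prior count draws differences against a muscle at 0 toward 0.

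Levels of different genes were compared by TPM, which is per length. In round muscle the medians fell from TBX15 (79.7 TPM) to PITX1 (6.88), EN1 (0.515), ZIC1 (0.384), TBX4 (0.373), TBX5 (0.0202), FOXD1 (0.00511) and ZIC5 (0). TBX15 stood above PITX1, PITX1 above EN1, and TBX4 above TBX5, in 8 of 8 round libraries. The ranges of EN1, ZIC1 and TBX4 overlapped, and so did those of TBX4 with TBX5, TBX5 with FOXD1 and FOXD1 with ZIC5. In sirloin muscle the order was TBX15 (69.4 TPM), ZIC1 (7.48), PITX1 (6.90), EN1 (0.658), ZIC5 (0.360) and FOXD1 (0.1097), with TBX4 and TBX5 at 0. ZIC1 and PITX1 overlapped there, as did EN1 with ZIC5 and ZIC5 with FOXD1.

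ZIC4, the neighbour of ZIC1, was also higher in sirloin muscle in 8 of 8 calves without overlap between the muscles. It had 0.617 to 1.34 TPM (median 0.877) in sirloin and 0 to 0.421 TPM (median 0.0548) in round muscle, with a log2 fold change of -3.84 ± 0.58 (SE, edgeR quasi-likelihood test with the calf as a block, Benjamini-Hochberg adjusted p = 0.0120). Without the calf block its adjusted p by edgeR was 0.115.

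ZIC2, named here after its values were seen, had 0 counts in every round library and 0, 67, 19 and 13 counts in sirloin control 1 to 4 and 4, 7, 71 and 7 counts in sirloin treated 1 to 4. It was at least 59.2-fold higher in sirloin muscle over the groups of 8 libraries, at least 36.3-fold without treated calf 3, and its adjusted p by edgeR was 0.0586. The ZIC genes lie in pairs in the genome. ZIC2 is the next protein-coding gene to ZIC5, and ZIC4 overlaps ZIC1 in the RefSeq annotation, so that reads of ZIC1 and ZIC4 could not be told apart in the shared stretch if counting ignored strand, which the sources do not state. ZIC1 and ZIC4 were both at 0 in round control 1 and round treated 1 and both highest among round libraries in treated 4. ZIC4 had the profile most like that of ZIC1 over 16 libraries (root mean square difference 0.83), ahead of HOXC8 at 1.78. SHISA3 at 1.27 and WDR86 at 1.43 were among the 3 profiles most like that of ZIC5. The profile nearest to that of FOXD1 was that of WDR86 at 0.82, that of TBX5 was nearest to ARSJ (0.51), that of TBX15 to RCBTB2 (0.24) and that of EN1 to SAMD13 (0.46). About their own means, FOXD1, TBX5, TBX15 and EN1 had root mean squares of 1.72, 0.89, 0.36 and 0.89. The nearest profiles of FOXD1, TBX5, TBX15 and EN1 thus left much of their variation unmatched. HOXC8, SHISA3 and WDR86 had mean CPM of 3.78, 1.07 and 2.04 in round and 15.2, 10.4 and 13.5 in sirloin muscle. Like ZIC4 they were higher in sirloin muscle, as were ZIC1, ZIC5 and FOXD1, so their likeness to these members is no separate result.

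**Figure D3:**
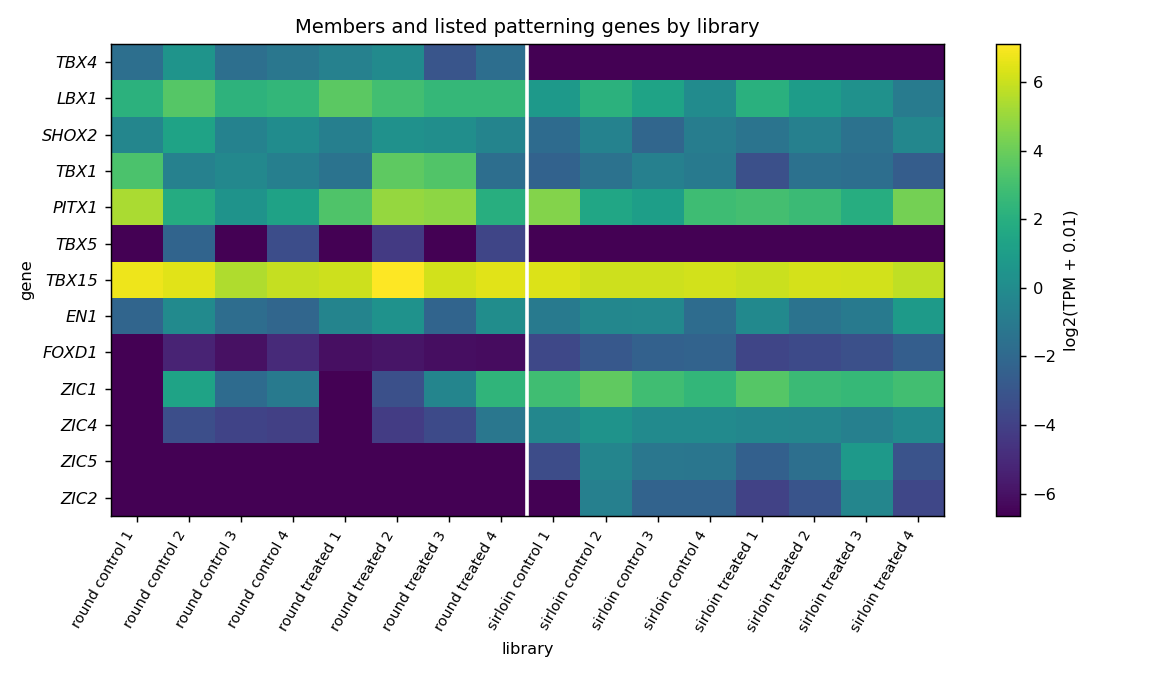
Log2(TPM + 0.01) (colour) of the 8 factors and 5 further patterning genes (rows) in 16 libraries (columns), with a white line between round and sirloin muscle. TBX4 is at the lowest colour (0 TPM) in all sirloin libraries and ZIC5 and ZIC2 in all round libraries, while ZIC1 varies from 0 to 5.04 TPM among the round libraries.

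For the other genes of limb and trunk patterning, a list of 93 genes without HOX genes and without the members was used, of which 83 had a count in any library. Between the muscles 4 of the 83 passed the test (4.82%, against 0.533% of all 22877 genes), 2 in each direction (0.267% of all genes in each). The calls higher in sirloin muscle included ZIC4. Those higher in round muscle were LBX1, the factor of migrating limb muscle precursors, and SHOX2, a factor of proximal limb growth. The median log2 fold change of the 83 genes was 0.16 and that of all genes -0.0041, and 19 of the 83 had an unadjusted p under 0.05 by edgeR, where 11.2% of all genes had. The list was chosen with earlier results of these data known, and its ZIC genes are relatives of members chosen on this contrast. Nothing is thus read from these shares.

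LBX1 had 4.51 to 12.4 TPM (median 5.71) in round and 0.525 to 4.52 TPM (median 1.81) in sirloin muscle. Round muscle was higher in 8 of 8 calves, with a log2 fold change of 1.95 ± 0.26 (SE, adjusted p = 0.00544 by edgeR), although the groups overlapped. SHOX2 had 0.595 to 2.52 TPM in round and 0.226 to 0.814 TPM in sirloin muscle and was higher in round muscle in 7 of 8 calves, with a log2 fold change of 1.19 ± 0.23 (SE, adjusted p = 0.0401 by edgeR). Its highest value was in round control 2, the library rich in connective tissue markers. Without the calf block the adjusted p by edgeR was 0.145 for LBX1 and 0.438 for SHOX2. The call of SHOX2 was lost when any calf but treated 4 was left out, with adjusted p of 0.0570 to 0.114 by edgeR.

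**Figure D4:**
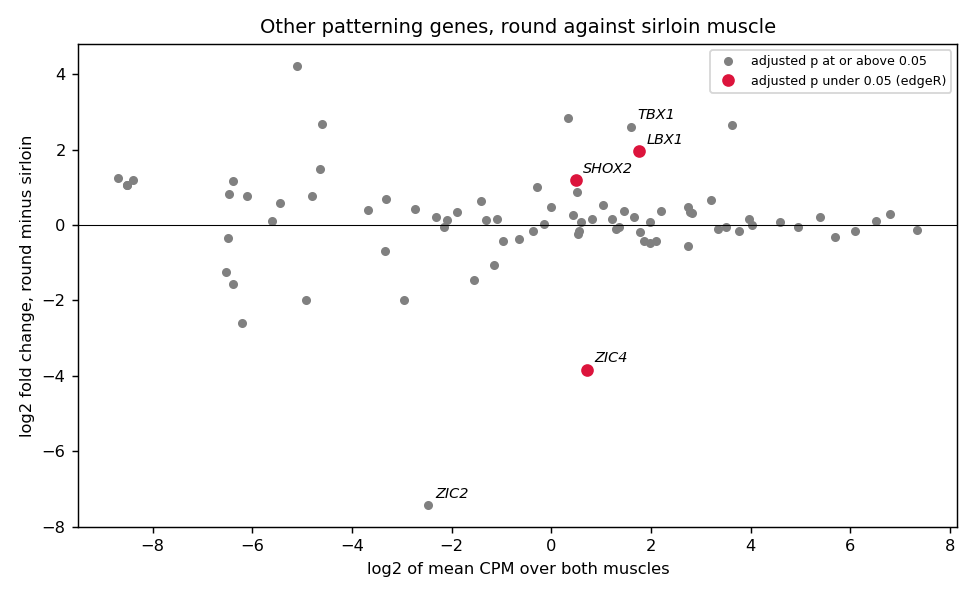
Log2 fold change of round minus sirloin muscle (y axis, edgeR) against log2 of mean CPM (x axis) for the tested genes of the patterning list that are reported here. Red points are genes with an adjusted p under 0.05 (ZIC4, LBX1 and SHOX2), and ZIC2 and TBX1 are named among the grey points at -7.42 and 2.61.

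Relatives of the other members named here did not pass the edgeR test. Among T-box genes, TBX1 had a log2 fold change of 2.61 ± 0.72 (SE, adjusted p = 0.146 by edgeR and 0.0114 by DESeq2, which called it) and was higher in round muscle in 8 of 8 calves, but in 5 of these it was below 1 TPM in both muscles. TBX2 and TBX3, the genes next to TBX4 and TBX5, had log2 fold changes of 0.38 ± 0.17 and 0.32 ± 0.25 (SE). TBX18 had 1.00 ± 0.43, TBX19 had -0.43 ± 0.39 and MGA had -0.33 ± 0.13 (SE). PITX3 had 0.22 ± 0.14, FOXD3 had -0.11 ± 0.19 and EN2 had 0.02 ± 0.39 (SE). Apart from TBX1, the adjusted p of these genes was 0.323 or above by edgeR. Of the 16 nearest protein-coding genes on both sides of the members, 14 had counts and none passed (0.533% of all genes did). By edgeR 3 of them (BRIP1, TBX2 and ZIC2) had an unadjusted p under 0.05, where 11.2% of all genes had. DESeq2 and limma-voom each called 1 of the 14, ZIC2, and 822 and 104 of all 22877 genes.

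The diet of the mother was compared within each muscle. No member differed between control and treated calves in either muscle by edgeR's quasi-likelihood test, and control and treated TPM overlapped for every member (they did not for 1.74% of genes in round and 2.99% in sirloin muscle). In round muscle 7 members had counts, 0 of 7 were called (0.0185% of 21677 genes were) and 0 of 7 had an unadjusted p under 0.05 (4.41% of all genes), with a lowest adjusted p of 0.864. In sirloin muscle 6 members had counts, 0 of 6 were called (0.00918% of 21776 genes were) and 0 of 6 had an unadjusted p under 0.05 (3.91%), with a lowest adjusted p of 0.876. DESeq2 and limma-voom called none of them either.

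The intervals show what 4 calves against 4 could resolve. For TBX15, the best measured member, the log2 fold change of treated against control calves was 0.14 (95% interval -0.53 to 0.82) in round and -0.32 (-0.74 to 0.11) in sirloin muscle. For TBX4 in round muscle it was -0.34 (-1.74 to 1.05), and without control calf 2 it was 0.24. For PITX1 it was 0.34 (-1.77 to 2.46) in round and -0.16 (-1.79 to 1.48) in sirloin muscle, and without control calf 1 these were 2.80 and 1.09. Changes of several fold in PITX1 were thus not detectable.

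The intervals of ZIC1 and FOXD1 were wider in round than in sirloin muscle. ZIC1 had a log2 fold change with the treated diet of 0.88 (95% interval -2.26 to 4.03) in round, turning to -1.49 without treated calf 4, and of -0.27 (-0.99 to 0.45) in sirloin muscle. ZIC5 had 0.30 (-1.57 to 2.16) in sirloin muscle, which turned to -1.23 without treated calf 3. FOXD1 had -1.04 (-3.57 to 1.48) in round and -0.72 (-1.76 to 0.31) in sirloin muscle. EN1, with the lowest unadjusted p in round muscle (0.143 by edgeR), had 0.93 (-0.36 to 2.21) there and 0.37 (-0.81 to 1.54) in sirloin muscle, the latter turning to -0.22 without treated calf 4. TBX5 had -1.42 (-4.89 to 2.04) in round muscle, on 28 counts in all.

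**Figure D5:**
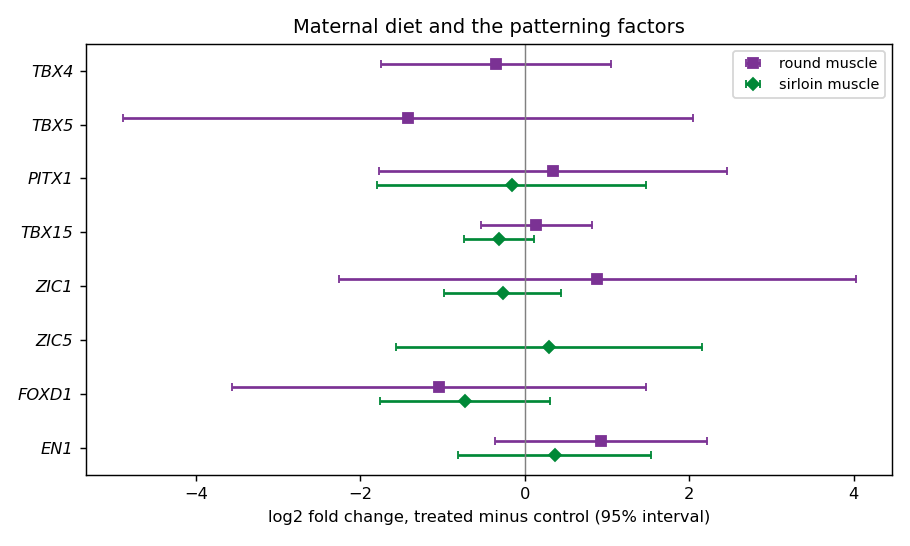
Log2 fold change of treated minus control calves (x axis) with its 95% interval, derived from edgeR's F statistic, for each factor (y axis). Squares are round and diamonds sirloin muscle. Every interval includes 0, and TBX4, TBX5 and ZIC5 have no value in the muscle where they had 0 counts.

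The difference of the diet effect between the muscles could be estimated for 5 members with counts in both. It passed the test for 0 of 5, as for 0.00437% of all 22877 genes, and 0 of 5 had an unadjusted p under 0.05 by edgeR (3.78% of all genes). The value closest to the threshold was that of TBX15, 0.46 on the log2 scale (95% interval -0.15 to 1.06) for the effect in round minus that in sirloin muscle. Of the patterning list none was called for diet in either muscle by edgeR, DESeq2 or limma-voom. By edgeR 4 of 81 tested genes in round and 6 of 77 in sirloin muscle had an unadjusted p under 0.05. Of all genes 4.41% and 3.91% had.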

How the data were processed

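The members, the patterning list and the marker lists were chosen with earlier results of these data known. The submitters' processing notes name FastQC, Trimmomatic, STAR, featureCounts, DESeq2 and the build ARS-UCD1.2. The study's methods name HISAT2, Bowtie2 and StringTie, and poly(A) selection in the labels stands beside a ribosomal RNA depletion kit in the methods, so which pipeline and kit made the files is not settled here. The deposited read counts are whole numbers per gene without normalization. The deposited normalized values sum to 999755.6 to 1000000 per library and were used as the authors' TPM. Deposited tables of the authors' fold changes and p-values were not used. Symbols came from the RefSeq gene table of ARS-UCD2.0, which matched 30762 of 34109 gene IDs (90.2%). That build is not the files' build, so no coordinates are given. No DNA or protein sequence was used here.

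Counts were tested with edgeR 4.0.16 (TMM factors, glmQLFit and glmQLFTest, R 4.3.3) over the genes that had 1 count or more in some library of the fit, two-sided, with Benjamini-Hochberg adjustment over all genes and a threshold of 0.05. Round against sirloin muscle, and the difference of the diet effect, used 16 libraries with the calf as a block. Diet was tested within each muscle, on 8 libraries, without a block. CPM used TMM-scaled totals. A fold against a muscle at 0 used a floor of 3 counts over its libraries. The labels give both libraries of a calf the same number, and after removal of group means these correlated at 0.250 to 0.595, against at most 0.0671 with another calf of the same diet. Removing group means draws the correlations with other calves down where those within a calf are positive, so this gap is overstated. Replicate numbers did not pair calves across diets (-0.154 to 0.188). Scripts were tested on simulated counts. With some genes changed there, the share of false calls was above the threshold of 0.05 for diet and for the difference of the diet effect. Alternatives were DESeq2 1.42.0, limma-voom and limma 3.58.1 on log2(TPM + 0.1) and log2(TPM + 1), RLE and upper-quartile factors, filterByExpr, adding or removing blocks, both muscles in a single fit for diet, each diet alone and leaving out each calf.

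Genes were named by this rule: the 8 members, their measured family members (T-box, PITX, ZIC, FOXD, EN) with at least 0.5 CPM in either muscle, other listed genes past the threshold, the nearest protein-coding gene on each side of a member, the 3 genes with the profile most like each member's, and marker genes. Some genes that the rule names are not reported here.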

Additional observations from a re-analysis of the deposited data

Results flagged for a closer look

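Of 26 groups of 4 libraries in which a member had counts, 5 held a library that lay far from the other 3 by Dixon's test. Its threshold passes about 1 in 20 groups if values are normally distributed, which was not checked for TPM. Groups of different members also share libraries, so no excess over chance is read from the 5. In round muscle of control calves, calf 2 had 1.39 TPM of TBX4 and 0.952 TPM of EN1, and calf 1 had 41.7 TPM of PITX1. In round muscle of treated calves, calf 4 had 5.04 TPM of ZIC1. In sirloin muscle of treated calves, calf 3 had 1.66 TPM of ZIC5. Round control 2 was also the library with the highest fibroblast and tendon marker sums, and the part of these cells was not tested.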

How the results depend on the processing

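No member was called for diet in either muscle, or for the difference of the diet effect, under any alternative, and TBX4, TBX5, TBX15, ZIC1, ZIC5, FOXD1 and EN1 kept their direction between the muscles in every alternative that gave a value. PITX1 turned from 0.34 to -0.18 in control calves alone and ranged from -0.019 to 0.70 when a calf was left out. The cause of the shifts below was not tested.

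The count of genes called between the muscles was 122, and 822 with DESeq2, 75 and 57 with limma on log2(TPM + 0.1) and log2(TPM + 1), 4 in treated calves alone, 44 to 368 when a calf was left out (368 without treated 4) and 14 without the calf block. Of the patterning list 4 were called, 10 with DESeq2, 1 in treated calves alone and 1 without the calf block. The difference of the diet effect was called for 1 gene, 9 with DESeq2, 0 to 2 when a calf was left out and 0 without the calf block by edgeR, where 637 genes had an unadjusted p under 0.05.

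For diet in round muscle 4 genes were called, 46 with DESeq2, 1 with limma-voom, 2 with a replicate block, 1 with limma on log2(TPM + 0.1), 0 on log2(TPM + 1) (797 unadjusted) and 0 to 3 when a calf was left out (689 unadjusted without control 4, and 889 without treated 3). For diet in sirloin muscle 2 were called, 13 with DESeq2, 0 with limma-voom (682 unadjusted), 0 with a replicate block by edgeR (463 unadjusted), 1 and 0 with limma on log2(TPM + 0.1) and log2(TPM + 1) (1097 unadjusted for the latter) and 0 to 1 when a calf was left out. Replicate numbers do not pair calves across diets, so the block gives no pairing there.

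Signs of single members with wide intervals turned. With limma-voom the diet effect on ZIC1 in round muscle was -0.47, and in sirloin muscle that on PITX1 was 0.42 and that on ZIC5 -0.27. With a replicate block PITX1 had 0.38 and ZIC5 -0.22 in sirloin muscle, and PITX1 had 0.47 and 0.37 on log2(TPM + 0.1) and log2(TPM + 1). The difference of the diet effect of ZIC1 was -0.11 with DESeq2 and that of FOXD1 0.16 with limma-voom. Leaving out a calf gave -1.14 to 1.32 for ZIC1 and -0.45 to 0.24 for FOXD1 in that difference. For diet in round muscle it gave -0.85 to 0.24 for TBX4, -0.060 to 0.41 for TBX15, -0.032 to 2.80 for PITX1 and -1.49 to 2.33 for ZIC1. In sirloin muscle it gave -0.77 to 1.09 for PITX1, -0.50 to 0.0082 for ZIC1, -1.23 to 0.72 for ZIC5 and -0.22 to 0.63 for EN1. Depth limits TBX5 (28 counts) and FOXD1 in round muscle (25 counts).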
